A study of Rattus norvegicus with 15 samples.

Results

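The genes described here mark or control the stem cells at the base of the intestinal crypt: Lgr5, Olfm4, Ascl2, Axin2, Sox9, Hes1, Atoh1, Ephb2, Ephb3 and Prom1. Every probe outside the controls whose gene name in the array files was one of these was taken, and each was kept apart. This gave 12 probes of 9 of the 10 genes, among 41012 probes on the array. Sox9, Ephb2 and Prom1 had 2 probes each, the other 6 genes had 1, and no probe carried the name Atoh1, so that gene is not described. All 12 probes were well above background on all 15 arrays, and all 12 were among the 17029 probes tested.

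RNA came from a full piece of small intestine, 5 cm long, of 15 male rats in 3 groups of 5, with 1 array per rat. GK (Goto-Kakizaki) rats are a nonobese strain with spontaneous type 2 diabetes. GK-S-30 rats (the bypass group) had a Roux-en-Y gastric bypass at 16 weeks of age with a Roux limb of 30 cm, the stretch of jejunum that is joined to the stomach pouch and carries food without bile, and the piece was cut between 5 and 10 cm below that join. GK-Sham-PF rats (the sham group) were GK rats of the same age with a sham operation, in which the gut was cut at 16 cm from the ligament of Treitz and rejoined, and their food was limited to the lowest mean intake among the surgical groups of the study, usually that of a group with a shorter Roux limb that is not analysed here. Wistar rats were nondiabetic, age-matched and not operated on. In these and the sham rats the piece lay 21 to 26 cm beyond that ligament. Tissue was taken 14 weeks after the operation, after a fast overnight. Strain, diabetes, operation and food limit all differ between Wistar and GK-Sham-PF and cannot be told apart there. In addition, 4 of the 5 Wistar arrays were on a slide that held no GK array. The bypass and sham groups differ in operation, in where food and bile flow and in the food limit, which was set for the sham rats. These cannot be told apart there either. Of the bypass arrays, 3 were on a slide that held no sham array.

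Stem cells at the crypt base divide throughout life and replace the epithelium. Wnt ligands keep them dividing: they stabilise beta-catenin, which with TCF/LEF factors switches on targets such as Axin2, Ascl2, Lgr5, Sox9, Ephb2 and Ephb3. Notch signalling between neighbouring cells switches on Hes1, which represses Atoh1, and cells that escape this repression become goblet, Paneth, enteroendocrine or tuft cells. BMP signals from the villus side oppose the stem cell state.

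What the arrays read is a stretch of 60 bases per probe. The probes of 5 members are shown, that of Hes1 because it had a call and the other 4 because they are the readings behind the values below that passed in no comparison. The Ascl2 probe and Prom1 probe 2 are not shown. The 5 sequences are written 5′ to 3′ on the sense strand and in lower case, with rat genome positions from the array annotation (build rn4). They lie at chr11:72605138-72605197 on the minus strand (Hes1), chr7:54738832-54738891 on the minus strand (Lgr5), chr15:61289047-61289106 on the plus strand (Olfm4), chr10:98321105-98321164 on the plus strand (Axin2) and chr14:72194242-72195100 on the plus strand (Prom1 probe 1). The last spans 859 bases of genome and so crosses a splice junction, as do Ephb2 probe 2 and Ephb3.
Hes1: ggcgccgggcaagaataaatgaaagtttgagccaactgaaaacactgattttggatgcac
Lgr5: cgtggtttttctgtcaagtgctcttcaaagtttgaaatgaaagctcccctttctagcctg
Olfm4: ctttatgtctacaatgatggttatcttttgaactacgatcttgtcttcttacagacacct
Axin2: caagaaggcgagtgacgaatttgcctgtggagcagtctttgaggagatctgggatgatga
Prom1 probe 1: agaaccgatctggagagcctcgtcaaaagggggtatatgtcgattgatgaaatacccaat

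The regulatory sequence before Hes1 is shown because Hes1 is a Notch target. It holds the 250 bases before the transcription start in RefSeq (build GRCr8, chr11:84213046-84213295, minus strand, 5′ to 3′), with each copy of TGGGAA, the core of the site bound by the Notch effector RBPJ, in capitals.
Hes1 promoter: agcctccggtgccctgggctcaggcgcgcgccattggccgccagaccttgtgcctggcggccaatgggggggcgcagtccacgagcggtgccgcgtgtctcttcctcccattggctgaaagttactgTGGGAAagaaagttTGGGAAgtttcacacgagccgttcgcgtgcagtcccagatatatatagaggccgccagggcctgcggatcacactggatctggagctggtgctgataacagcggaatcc
The 2 copies begin 123 and 109 bases before the start, both in the sense direction. Of 33469 rat promoters of this length, 22.1% held TGGGAA on either strand and 2.71% held it more than once. Among the members, 8 of 10 had a promoter in the table (9 promoters, with 2 for Prom1, and none for Lgr5 or Sox9), and Hes1 was the single gene with a match. The letters CTTTGA, the core of the site of TCF/LEF factors, occurred in 13.9% of all promoters on either strand and more than once in 1.4%. The promoters of Axin2 and Atoh1 each held 2 copies, and the other member promoters held none in this window. These are matches of letters, and no binding was measured.

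Of the 12 probes, 1 was called between the bypass and sham groups, at an adjusted p under 0.05 in limma over all tested probes, where 8.36% of all tested probes were called. It was Prom1 probe 2, which was higher in GK-S-30. Between GK-Sham-PF and Wistar 1 of 12 was called against 7.88% of all probes, and it was Ascl2, lower in GK-Sham-PF. Between GK-S-30 and Wistar 3 of 12 were called against 24.1% of all probes: Ascl2 and Hes1 were lower and Prom1 probe 2 was higher in GK-S-30. Each share of the members (8.33%, 8.33% and 25%) was thus close to that of all probes. The values of both groups did not overlap for 2 of the 12 probes (Hes1 and Prom1 probe 2) between bypass and sham, for 1 (Ascl2) between sham and Wistar and for 3 between bypass and Wistar, where 8.39%, 9.04% and 18.3% of all probes did not overlap. The 3 comparisons share arrays and are not independent of each other. The median log2 difference over the 12 probes was -0.08, -0.10 and -0.23 in that order, beside -0.02, 0.01 and -0.01 over all tested probes. RNA came from whole tissue, in which fewer cells of a type and less RNA per cell cannot be told apart.

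**Figure D1:**
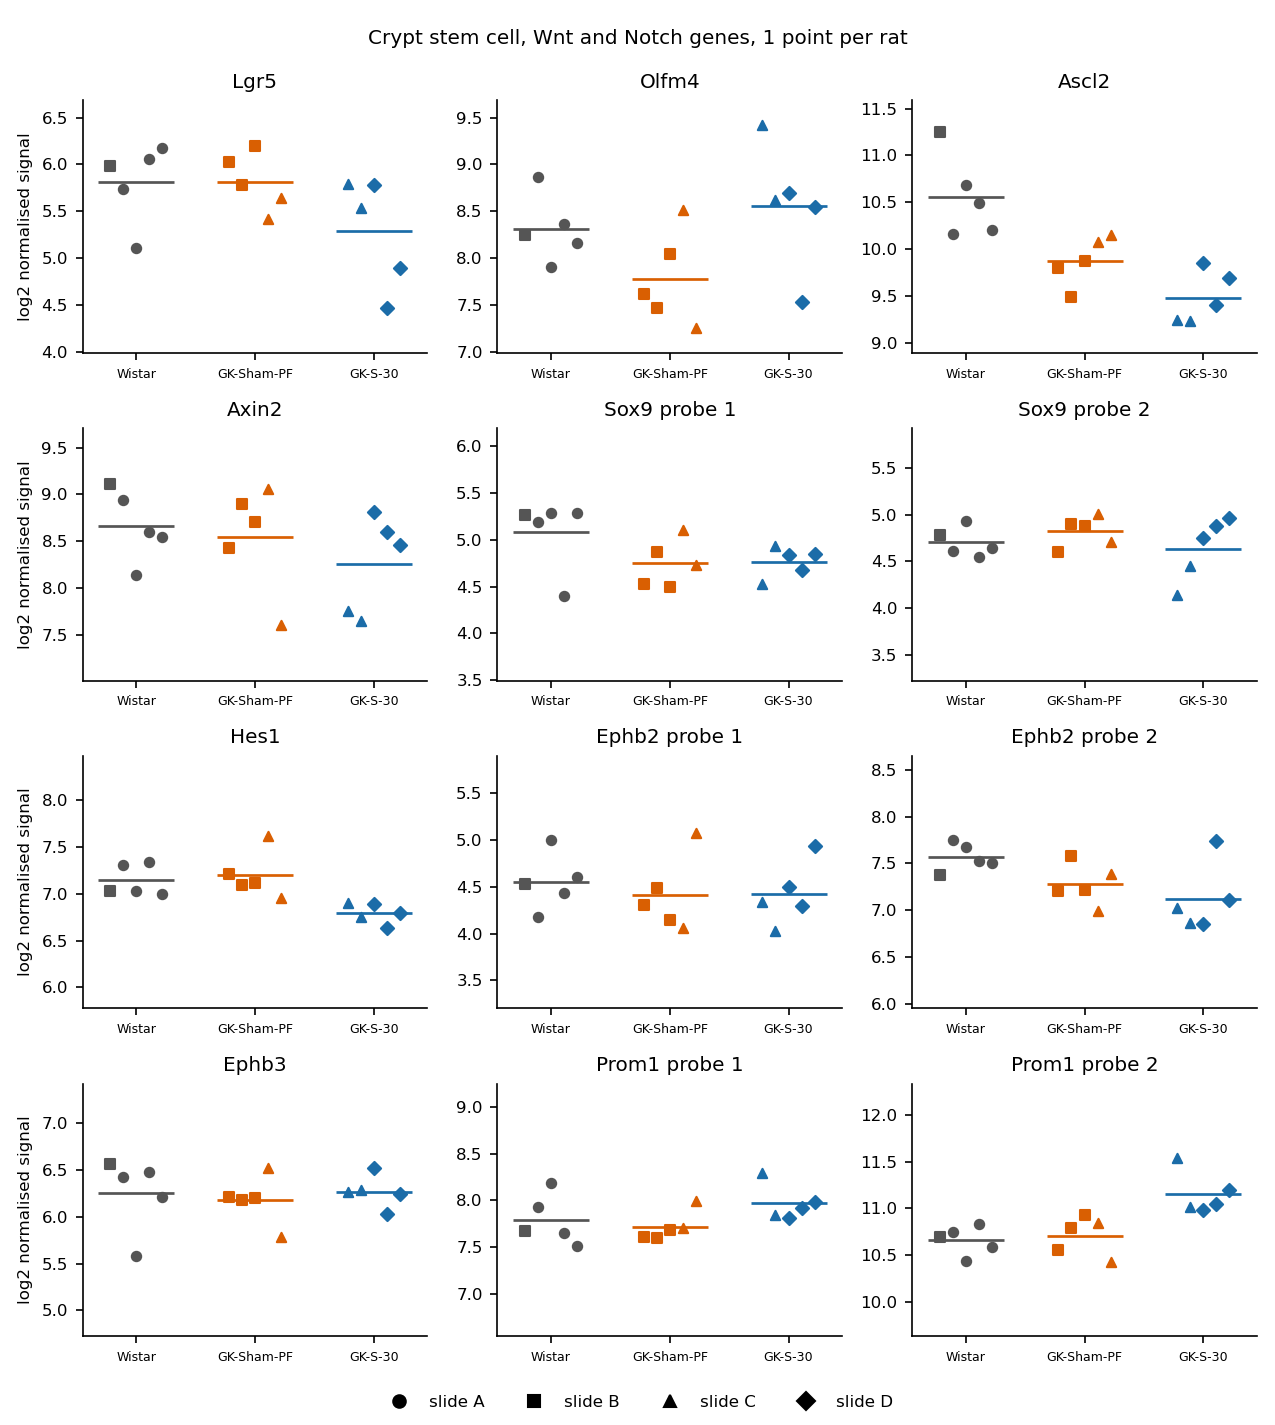
Log2 normalised signal (vertical axis) of the 12 probes on each of the 15 arrays, by group (horizontal axis), with a line at the mean of 5 arrays; all panels span the same range of 2.7 log2 units and the shapes give the slide of each array. Ascl2 stepped down from Wistar to GK-S-30, the 5 GK-S-30 values of Hes1 lay below all others, and those of Prom1 probe 2 lay above all others.

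**Figure D2:**
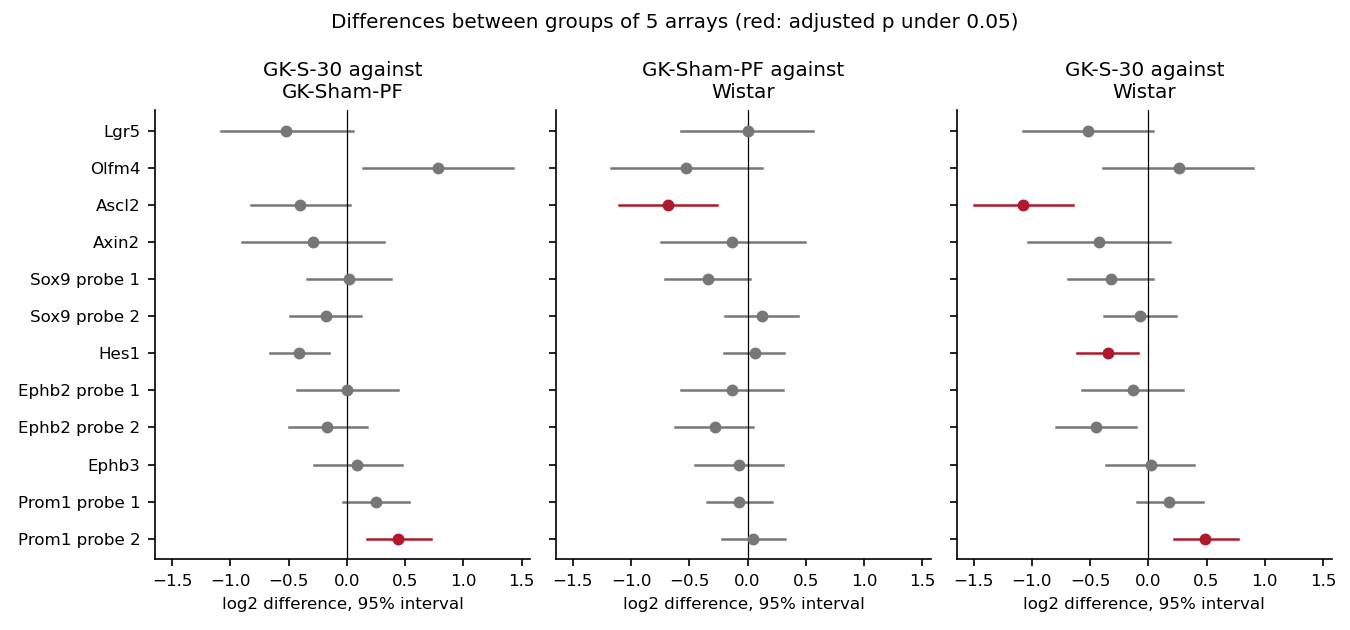
Log2 difference between group means (horizontal axis) for each probe (vertical axis) with its 95% interval from limma, in the 3 comparisons, 5 arrays per group. Red marks an adjusted p under 0.05: 1 probe, 1 probe and 3 probes from left to right.

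Ascl2 is a transcription factor that sets the stem cell identity of crypt base cells and is itself a Wnt target. Its log2 normalised signal was 11.25, 10.16, 10.68, 10.49 and 10.20 in Wistar replicates 1 to 5. It was 9.80, 9.49, 9.87, 10.07 and 10.15 in GK-Sham-PF. It was 9.24, 9.23, 9.85, 9.40 and 9.69 in GK-S-30. All 10 GK arrays thus lay below all 5 Wistar arrays, though the highest sham array, 10.15, was next to the lowest Wistar array, 10.16, while the sham and bypass groups overlapped. GK-S-30 was 2.11-fold lower than Wistar (log2 difference -1.08 ± 0.20, SE; limma adjusted p = 0.00117). GK-Sham-PF was 1.60-fold lower than Wistar (-0.68 ± 0.20; limma adjusted p = 0.0492). Between the bypass and sham groups the log2 difference was -0.40, with a 95% interval from -0.82 to 0.03 (limma adjusted p = 0.263). The order of the means was Wistar, GK-Sham-PF, GK-S-30, and the last 2 did not differ beyond their spread. 

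The call against Wistar held for GK-S-30 without any single array, with log2 differences from -1.18 to -0.90. That for GK-Sham-PF lay close to the threshold: it was kept without Wistar replicate 2 (adjusted p = 0.0337), Wistar replicate 5 (0.0426), GK-Sham-PF replicate 5 (0.0408) or GK-S-30 replicate 3 (0.0483), and was lost without any other single array, with adjusted p up to 0.125 and log2 differences from -0.78 to -0.51. The arrays lay on 4 slides: A held Wistar 2 to 5, B Wistar 1 and GK-Sham-PF 1 to 3, C GK-Sham-PF 4 and 5 and GK-S-30 1 and 2, and D GK-S-30 3 to 5. On slide B the log2 difference of GK-Sham-PF from Wistar was -1.53, where the single Wistar array was the brightest of its group for Ascl2. On slide C that of the bypass from the sham group was -0.88. No slide held both Wistar and GK-S-30.

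Prom1 encodes prominin-1 (CD133), a membrane protein of crypt stem and progenitor cells. Its brighter probe, probe 2 at chr14:72230062-72230121 (rn4, plus strand), read 10.70, 10.75, 10.44, 10.83 and 10.59 in Wistar. It read 10.56, 10.79, 10.93, 10.84 and 10.43 in GK-Sham-PF and 11.54, 11.01, 10.98, 11.05 and 11.20 in GK-S-30. Every bypass array lay above every other array, though the lowest of them, 10.98, was close to the highest sham array, 10.93. Prom1 by this probe was 1.36-fold higher in bypass than in sham rats (log2 difference 0.44 ± 0.13, SE; limma adjusted p = 0.0441) and 1.41-fold higher than in Wistar (0.49 ± 0.13; limma adjusted p = 0.0113). GK-Sham-PF differed from Wistar by 0.05, with a 95% interval from -0.22 to 0.32.

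Probe 1 of Prom1, whose sequence is given above, did not pass in any comparison. Its values ran from 7.51 to 8.19 in Wistar, from 7.60 to 7.99 in GK-Sham-PF and from 7.81 to 8.29 in GK-S-30. Its log2 difference between the bypass and sham groups was 0.25 ± 0.13 (SE; limma adjusted p = 0.293), the same sign as probe 2, with a 95% interval from -0.03 to 0.53 that includes the 0.44 of probe 2. For probe 2 the call against GK-Sham-PF was kept without Wistar replicate 3 (adjusted p = 0.0364), GK-Sham-PF replicate 3 (0.0423), GK-S-30 replicate 2 (0.0466) or GK-S-30 replicate 3 (0.0456) and was lost without any other single array, where adjusted p reached 0.107. The log2 difference stayed between 0.35 and 0.50. That against Wistar held without any single array (0.40 to 0.54). On slide C the log2 difference between the bypass and sham groups was 0.64.

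Hes1 is the transcriptional repressor through which Notch keeps crypt cells from the secretory fate. Its log2 normalised signal was 7.03, 7.31, 7.03, 7.34 and 7.00 in Wistar and 7.21, 7.09, 7.11, 7.62 and 6.96 in GK-Sham-PF. It was 6.90, 6.75, 6.89, 6.63 and 6.79 in GK-S-30. The bypass arrays were all lower than every other array, though the highest of them was close to the lowest sham array. The log2 difference of the bypass from the sham group was -0.41 ± 0.12 (SE), a 1.32-fold lower level, and at a limma adjusted p of 0.0503 it did not pass. From Wistar the level in GK-S-30 was 1.27-fold lower (-0.35 ± 0.12; limma adjusted p = 0.0469). GK-Sham-PF and Wistar differed by 0.06, with a 95% interval from -0.20 to 0.31.

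Both Hes1 results lay at the threshold. Against GK-Sham-PF the difference passed without Wistar replicate 3 (adjusted p = 0.0477) or GK-Sham-PF replicate 5 (-0.47, adjusted p = 0.0329), the dimmest pair of arrays in the series. Against Wistar it was kept without Wistar replicate 3 (0.0478), GK-Sham-PF replicate 4 (0.0177) or GK-Sham-PF replicate 5 (0.0374), and lost without any other single array, with adjusted p up to 0.110. On slide C the log2 difference of the bypass from the sham group was -0.46. With normexp in place of the array software's background subtraction it was smaller, -0.16 against Wistar (adjusted p = 0.149). Hes1 varied little within groups, with a residual SD of 0.18 beside a median of 0.24 over all tested probes.

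**Figure D3:**
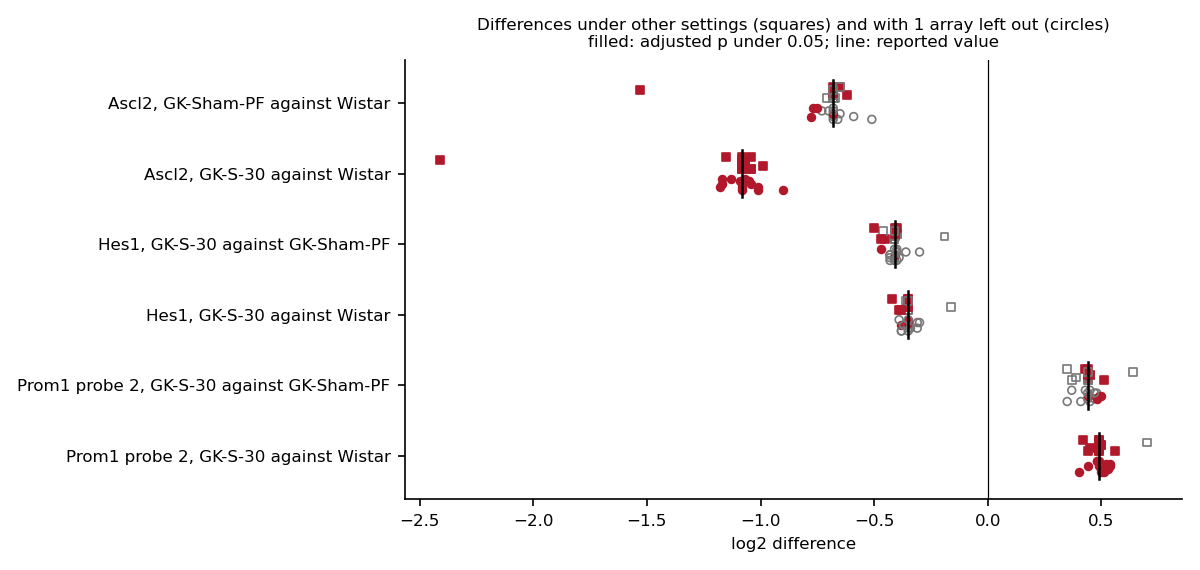
Log2 differences (horizontal axis) of the 3 genes with a call in 6 comparisons (vertical axis) under 16 other settings (squares) and with each of the 15 arrays left out (circles); the line is the reported value and filled symbols have an adjusted p under 0.05. No difference changed sign. The squares far to the left are the fit with slide as a fixed block, in which Wistar rests on a single array, replicate 1. Setting that fit aside, Ascl2 between GK-S-30 and Wistar was filled throughout.

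Lgr5 is the receptor for R-spondins that defines the cycling stem cell. It read 5.98, 5.74, 5.11, 6.06 and 6.18 in Wistar and 6.02, 5.78, 6.20, 5.42 and 5.64 in GK-Sham-PF. It read 5.79, 5.53, 5.78, 4.47 and 4.89 in GK-S-30, where replicates 4 and 5 were the lowest of all 15 arrays and the other 3 lay within the range of the other groups. The log2 difference of the bypass from the sham group was -0.52, with a 95% interval from -1.08 to 0.05 (limma adjusted p = 0.269), and from Wistar it was also -0.52 (-1.08 to 0.04; limma adjusted p = 0.168). On slide C, which held GK-S-30 replicates 1 and 2, the difference between bypass and sham was 0.14. GK-Sham-PF and Wistar had the same mean, 5.81, with a 95% interval of the difference from -0.57 to 0.56. Lgr5 thus passed in no comparison, and these intervals leave room for a 2-fold lower level in GK-S-30. Its signals before normalisation were low, from 20.25 to 80.79. GK-S-30 replicates 4 and 5 read 20.25 and 29.23, within the range of the dim Sox9 probes below.

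Olfm4, a secreted glycoprotein of crypt base cells, was the most variable member, with a residual SD of 0.53 that exceeded that of 93.4% of tested probes. It read 8.24, 8.87, 7.90, 8.36 and 8.16 in Wistar and 7.61, 7.47, 8.04, 8.51 and 7.25 in GK-Sham-PF. It read 9.42, 8.62, 8.69, 7.53 and 8.54 in GK-S-30, where 4 of 5 arrays lay above the highest sham array and replicate 4 lay among the lowest sham arrays. The bypass group was 1.72-fold higher than the sham group in the mean (log2 difference 0.78, 95% interval 0.14 to 1.43), which did not pass over all probes (limma adjusted p = 0.133). Without GK-S-30 replicate 4 the log2 difference was 1.04 (limma adjusted p = 0.0259). It was 1.14 on slide C. GK-Sham-PF lay 0.53 below Wistar (log2, 95% interval -1.17 to 0.12) and GK-S-30 lay 0.26 above it (-0.39 to 0.90), and neither passed.

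Axin2 is a scaffold of the complex that degrades beta-catenin and a direct Wnt target that limits the pathway. Its values ran from 8.14 to 9.11 in Wistar, from 7.61 to 9.06 in GK-Sham-PF and from 7.65 to 8.81 in GK-S-30. The lowest value of Wistar and that of GK-Sham-PF came from the dimmest arrays (replicate 3 of Wistar and replicate 5 of GK-Sham-PF). Among the GK-S-30 arrays, replicates 1 and 2 on slide C read 7.75 and 7.65 and the 3 arrays on slide D read 8.81, 8.60 and 8.46. The log2 difference of GK-S-30 was -0.29 from GK-Sham-PF (95% interval -0.90 to 0.32) and -0.42 from Wistar (-1.03 to 0.19), and that of GK-Sham-PF from Wistar was -0.13 (-0.74 to 0.49). None passed, at a residual SD of 0.50.

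Sox9 is a transcription factor of crypt progenitors and Paneth cells that Wnt signalling maintains. Its 2 probes lie at chr10:102393822-102393881 (probe 1) and chr10:102387444-102387503 (probe 2), both in rn4 on the plus strand, and both were dim, with signals between 19.9 and 42.8 before normalisation. Probe 1 read between 4.40 and 5.29 in Wistar, 4.50 and 5.11 in GK-Sham-PF and 4.53 and 4.93 in GK-S-30. It did not pass in any comparison, with log2 differences of -0.34 (GK-Sham-PF) and -0.32 (GK-S-30) from Wistar. The low Wistar value was that of replicate 4. Without this array the differences were -0.52 (limma adjusted p = 0.0267) and -0.50 (limma adjusted p = 0.0138). Probe 2 gave 0.12 and -0.07 for the same pairs, so the probes differed in sign for GK-Sham-PF. The array design assigns each to a different predicted transcript, and whether both read the same transcript was not tested.

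Ephb2 and Ephb3 are receptor tyrosine kinases, induced by Wnt, that keep crypt cells in place by repulsion from ephrin-bearing cells nearer the villus. Ephb2 probe 2 (chr5:155423745-155424720, rn4, minus strand) read between 7.38 and 7.75 in Wistar, 6.99 and 7.58 in GK-Sham-PF and 6.85 and 7.74 in GK-S-30. In GK-S-30, 4 of 5 arrays were at or below 7.11, and replicate 4 read 7.74. The log2 difference of GK-S-30 from Wistar was -0.45 ± 0.16 (SE; limma adjusted p = 0.0512), just outside the threshold. It passed without GK-S-30 replicate 4 (-0.60, adjusted p = 0.00292) or GK-Sham-PF replicate 4 (-0.45, adjusted p = 0.0492). Ephb2 probe 1 (chr5:155540171-155540230, rn4, minus strand) was dim, with signals of 15.7 to 30.4 before normalisation, and its difference for the same pair was -0.13 (95% interval -0.57 to 0.30), which includes that of probe 2. Ephb3 had a log2 difference of 0.09 between the bypass and sham groups (-0.28 to 0.47), of 0.02 between GK-S-30 and Wistar (-0.36 to 0.39) and of -0.07 between GK-Sham-PF and Wistar (-0.45 to 0.30). Its lowest arrays in Wistar (5.58) and GK-Sham-PF (5.79) were again the dimmest arrays.

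For the members with a call, the 3 genes whose probes had the most similar values over the 15 arrays were listed, as a description. For Ascl2 these were Polrmt, the mitochondrial RNA polymerase (Pearson r = 0.936), Daglb, a diacylglycerol lipase (0.932), and Nat8f5 (0.883). After the group means were removed r was 0.91, 0.79 and 0.57. For Prom1 probe 2 they were Plekhg3 (0.927, and 0.85 within groups), Anxa5, an annexin (0.917 and 0.80), and Mybl2, a transcription factor of cycling cells (0.913 and 0.84). For Hes1 they were Dnah17 (0.893 and 0.76), Nnt, the mitochondrial transhydrogenase (0.840 and 0.81), and Tenm3 (0.839 and 0.68). All points of a pair come from the same arrays and share their signal level and slide.

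The rest of the Wnt pathway was described with lists of ligands, receptors and transducers, inhibitors and targets, with the brightest tested probe of each gene and without the members. Of 62 tested genes 4 were called between the bypass and sham groups (2 higher, 2 lower), none between sham and Wistar rats and 13 (5 higher, 8 lower) between bypass and Wistar rats. In the comparison without a limma call, 7 of the 62 had an unadjusted p under 0.05, beside 19.5% of all tested probes. The shares called were 6.45%, 0% and 21%, and each lay below the share of all tested probes given above. That share counts every probe, while the lists take 1 probe per gene. With the brightest probe of each gene alone, 1257, 1150 and 3412 of 13024 probes were called in limma. Wnt4, a ligand, fell in the bypass against the sham group (log2 difference -0.50 ± 0.12; limma adjusted p = 0.0222). Fzd2, a Wnt receptor, rose (0.58 ± 0.14; limma adjusted p = 0.0225). Ctnnbip1, which blocks beta-catenin from TCF, rose by 0.34 (limma adjusted p = 0.0490), and Ets2 fell by 0.36 (limma adjusted p = 0.0219).

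Ctnnb1, which encodes beta-catenin itself, rose in GK-S-30 against Wistar (0.48 ± 0.12; limma adjusted p = 0.0105), with all 5 bypass arrays above all 5 Wistar arrays. Its log2 difference between the bypass and sham groups was 0.30 and did not pass (limma adjusted p = 0.162). Its partner Tcf7l2 gave 0.49 against Wistar (limma adjusted p = 0.0582). Lgr4, the R-spondin receptor found beyond the stem cells, gave 0.22 between the bypass and sham groups, and Wnt3, the ligand made by Paneth cells, gave -0.37 (limma adjusted p = 0.188). Rnf43, the ubiquitin ligase that removes Wnt receptors, gave 0.08, Myc, a Wnt target of dividing cells, gave -0.39 (limma adjusted p = 0.301), and Smoc2, a stem cell marker, gave 0.00 ± 0.11. None of these 5 passed against Wistar either. Znrf3 had no tested probe.

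The Notch lists gave 1, 2 and 4 calls among 39 tested genes (2.56%, 5.13% and 10.3%), in the same order of comparisons. No other Notch target among the 9 tested (Hes and Hey genes and Notch3) was called in any comparison by limma. At an unadjusted p under 0.05 in limma their counts were 1, 1 and 2, beside 22.1%, 19.5% and 36.5% of all tested probes. Among the other settings, 75th percentile scaling and the reference to the epithelial genes described below each gave 1 call among these 9, lower in GK-S-30 than in Wistar. The median log2 difference of these 9 was -0.17 between the bypass and sham groups. Notch1 gave -0.16 (limma adjusted p = 0.647), the ligand Dll1 gave -0.11 (limma adjusted p = 0.848) and Rbpj, the DNA-binding partner of Notch, gave 0.03 (limma adjusted p = 0.939). Dll4 had no tested probe. Pofut1, the enzyme that puts fucose on Notch receptors, was the Notch gene with the smallest adjusted p. It was 2.22-fold lower in GK-Sham-PF than in Wistar (-1.15 ± 0.09; limma adjusted p = 2.5e-07) and lower again in bypass than in sham rats (-0.33 ± 0.09; limma adjusted p = 0.0297). Mib1, the ubiquitin ligase that activates Notch ligands, rose in GK-Sham-PF (0.51 ± 0.12; limma adjusted p = 0.0172) and GK-S-30 (0.64 ± 0.12; limma adjusted p = 0.00166) against Wistar. Dlk1, a noncanonical Notch ligand, fell in GK-S-30 against Wistar (-1.64 ± 0.38; limma adjusted p = 0.00612).

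Among the pathway lists, that of the factors of the secretory lineages had the largest share of calls between the bypass and sham groups. The lists were chosen with earlier results of these data known, so this rank is a description and not a test. A link of these factors to the level of Hes1 was not tested, and Atoh1 had no probe. Of 16 tested genes 5 were called, all higher in GK-S-30, and the median log2 difference was 0.26 beside -0.02 over all probes. Dclk1, a kinase that marks tuft cells, was 3.18-fold higher (1.67 ± 0.31; limma adjusted p = 0.00409). Pou2f3, the master factor of tuft cells, was 2.60-fold higher (1.38 ± 0.29; limma adjusted p = 0.00923). Bhlha15 (Mist1), a factor of secretory cells, rose by 0.58 (limma adjusted p = 0.0131). For each of these 3 genes all bypass arrays lay above all sham arrays. Against Wistar 6 of the 16 were called in GK-S-30, 4 higher and 2 lower. The list had no limma call between sham and Wistar rats, where 4 genes had an unadjusted p under 0.05, beside 19.5% of all tested probes. With slide as a fixed block 1 gene of the list was called. With 75th percentile scaling 5 genes were called higher and 1 lower, and relative to the epithelial genes described below 4 were called higher and 1 lower. The median of the list was above 0 under all 6 other settings run on it, from 0.14 to 0.26. Among marker genes of the mature secretory cells, 5 of 16 enteroendocrine, 1 of 5 goblet and 1 of 11 Paneth cell genes were called between bypass and sham rats, all higher in GK-S-30, and the Paneth share was near the 8.36% of all probes. The enteroendocrine count was 2 relative to the epithelial genes and 0 with slide as a fixed block. Between GK-S-30 and Wistar 7 enteroendocrine genes (4 higher, 3 lower), 3 goblet genes (all higher) and 4 Paneth cell genes (2 higher, 2 lower) were called.

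**Figure D4:**
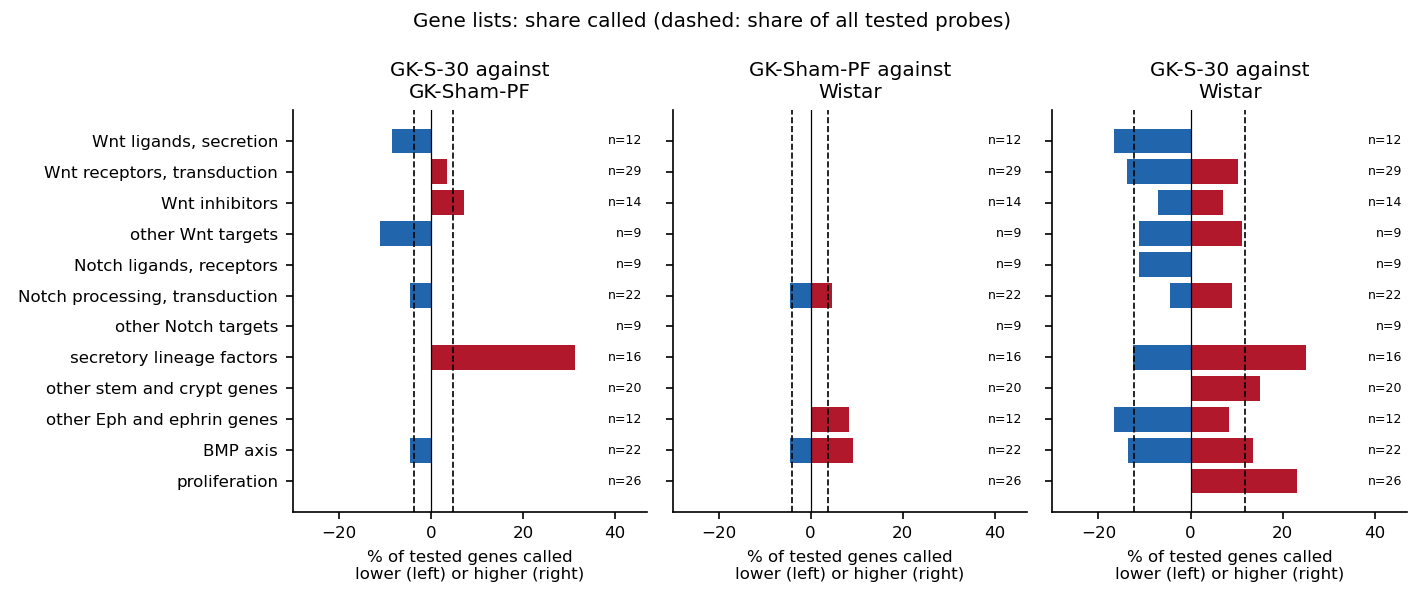
Percentage of the tested genes of 12 lists (vertical axis) called lower (blue, left of 0) or higher (red, right of 0) in each comparison, with the number tested at the right; dashed lines give the percentages over all 17029 probes. The red bar of the secretory lineage factors, 5 of 16 genes, is the longest in the left panel.

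Of 20 other stem and crypt genes none was called between bypass and sham or between sham and Wistar rats, and 3 were higher in GK-S-30 than in Wistar. At an unadjusted p under 0.05 in limma these counts were 3, 6 and 6, beside 22.1%, 19.5% and 36.5% of all tested probes. Relative to the epithelial genes 1 was called higher against Wistar, and with slide as a fixed block none was. Without the 2 dimmest arrays 3 were called between bypass and sham (1 higher, 2 lower), 1 between sham and Wistar (lower) and 6 between bypass and Wistar (4 higher, 2 lower). The 3 called with all arrays were Etv5 (1.13 ± 0.25; limma adjusted p = 0.00376), Phlda1 (0.79 ± 0.26; limma adjusted p = 0.0377) and Cdx1 (0.26 ± 0.09; limma adjusted p = 0.0367). Among 12 other Eph and ephrin genes, Efna2, a membrane-bound ephrin ligand, rose in GK-Sham-PF (1.33 ± 0.16; limma adjusted p = 6.57e-05) and GK-S-30 (1.61 ± 0.16; limma adjusted p = 5.73e-06) against Wistar. Of 22 BMP genes 3 were called between GK-Sham-PF and Wistar. Bmp4 rose in GK-Sham-PF (1.32 ± 0.20; limma adjusted p = 0.000425) and Id2, a BMP target, fell (-0.64 ± 0.16; limma adjusted p = 0.0179). Both also differed between GK-S-30 and Wistar, by 1.17 and -0.90. Of 26 proliferation genes none was called by limma between the bypass and sham groups. In that comparison 5 had an unadjusted p under 0.05 in limma, beside 22.1% of all tested probes. Between GK-S-30 and Wistar 6 of the 26 were called, all higher in GK-S-30, beside 24.1% of all tested probes. Tyms, thymidylate synthase, was among them at 0.52 ± 0.10 (limma adjusted p = 0.00184). Relative to the epithelial genes 3 of these 26 were called in the latter comparison, and with slide as a fixed block none was.

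Other cell types of the piece moved with the groups. The mean log2 level of the smooth muscle list (10 genes) ran from 11.33 to 12.05 in Wistar, from 11.13 to 12.23 in GK-Sham-PF and from 12.57 to 12.91 in GK-S-30, with 6 of 10 genes called higher between the bypass and sham groups. Of 9 fibroblast genes 5 were called higher, with levels of 10.22 to 10.72 in GK-Sham-PF and 10.88 to 11.12 in GK-S-30. Of 11 immune cell genes 3 were called, all lower in GK-S-30. The epithelial list (15 genes) ran from 13.59 to 13.80, from 13.54 to 13.81 and from 13.70 to 13.88, so that its groups overlapped and its defining genes were bright in every array. Single genes of it did move: 3 of 15 were called between bypass and sham (2 higher, 1 lower) and 4 between bypass and Wistar (3 higher, 1 lower). Relative to this list, the log2 difference of Hes1 between the bypass and sham groups was -0.50 (limma adjusted p = 0.0289) and that of Prom1 probe 2 was 0.35 (limma adjusted p = 0.124). Ascl2 kept its call between GK-S-30 and Wistar. The part of the muscle and stromal RNA in the member values was not tested.

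**Figure D5:**
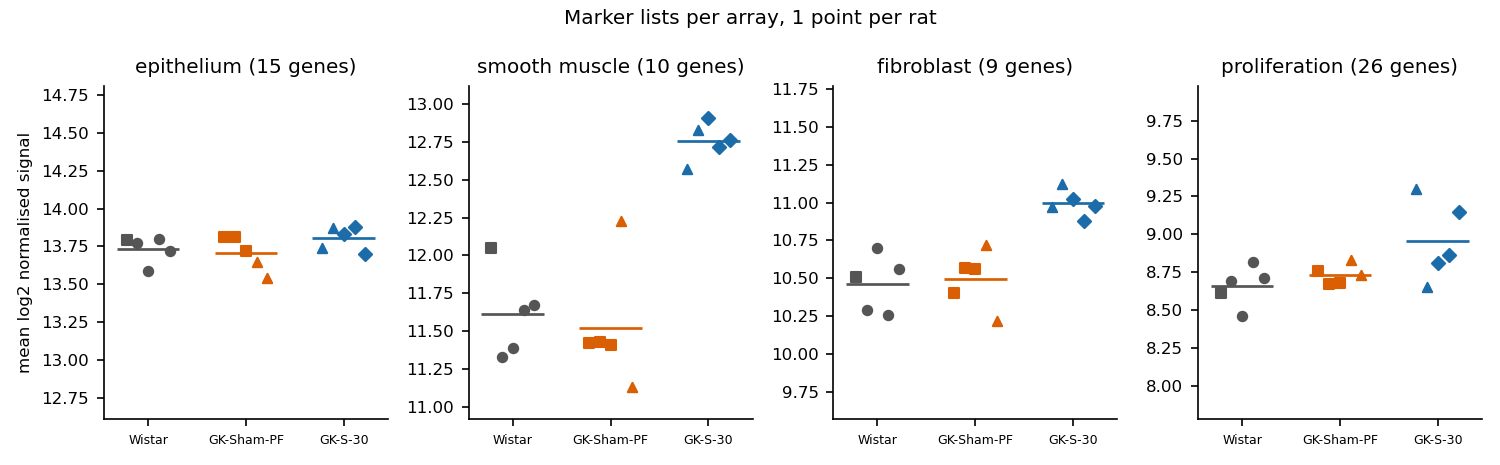
Mean log2 normalised signal (vertical axes, each spanning 2.2 log2 units) of 4 marker lists on each array by group (horizontal axis), with a line at the mean of 5 arrays; circles, squares, triangles and diamonds are slides A, B, C and D. Smooth muscle and fibroblast levels were higher on all 5 GK-S-30 arrays than on any other array, while the epithelial levels of the groups overlapped.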

How the data were processed

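Total RNA of 15 rats was labelled with 1 dye and hybridised to Agilent whole rat genome arrays. Per the labels, the authors read the arrays with Agilent Feature Extraction 10.7; the deposited intensity of each spot is its processed signal, already background-subtracted and not normalised between arrays. The deposited series matrix holds log2 values that the authors had quantile-normalised in GeneSpring. Groups and replicate numbers came from the sample labels. Members and gene lists were chosen with earlier results of these data known.

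Outlier spots were dropped, repeat spots were averaged per probe, and log2 processed signals were quantile-normalised with limma 3.58.1 (R 4.3.3; data.table, version 1.17.8; figures with Python 3.11.15 and matplotlib 3.10.9). Quantile normalisation assumes that most genes keep their level. No spot outside the controls was saturated. Probes with a gene symbol (RefSeq, GRCr8) that were well above background on all 5 arrays of at least 1 group were tested, 17029 of 41012. The share of probes well above background was 66.7% to 74.8% per array, and the 75th percentile of the signal was 206.6 to 357.2. The median standard error of a log2 difference was 0.15, which the number of arrays limits. The 3 comparisons were contrasts of a single limma model of all 15 arrays with no covariate, with Benjamini-Hochberg adjustment over all tested probes and a threshold of 0.05. The fit was tested on simulated data. A difference in log2 is the first group minus the second. Named were all member probes, at most 4 called genes per list and comparison, and 12 transducers whatever their result; 1 gene that this rule names is not reported here. The alternatives were other scalings, background corrections and filters, blocks for slide and replicate number, the methods' Tukey comparison and each array left out.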

Additional observations from a re-analysis of the deposited data

Results flagged for a closer look

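In 2 of the 36 groups of 5 values (12 probes in 3 groups), 1 array stood apart from the other 4, where chance alone flags about 1 group in 20. Sox9 probe 1 read 4.40 on Wistar replicate 4, while the other 4 Wistar arrays read between 5.19 and 5.29. Prom1 probe 1 read 7.99 on GK-Sham-PF replicate 5, 1 of the 2 dimmest arrays, while the other 4 read between 7.60 and 7.71.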

How the results depend on the processing

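The calls of Prom1 probe 2 between bypass and sham, of Ascl2 between GK-Sham-PF and Wistar and of Hes1 between GK-S-30 and Wistar lay near the threshold. Those of Ascl2 (limma adjusted p = 0.00117) and Prom1 probe 2 (limma adjusted p = 0.0113) between GK-S-30 and Wistar lay further from it. No slide held both of these groups, so neither difference could be read within a slide. A count moves with 1 probe. Between the bypass and sham groups the members called numbered 2 with 75th percentile scaling, with the filter on all 15 arrays, with the brightest probe of each gene, with slide as a random block and with the methods' Tukey comparison before adjustment over probes. They numbered 0 with normexp, without the filter, with unnamed probes included, with slide as a fixed block, with the replicate block, with the 2 groups alone and with the adjusted Tukey comparison. Between GK-Sham-PF and Wistar they numbered 0 with 75th percentile scaling, the authors' values, no filter, unnamed probes included, outlier spots kept, the replicate block, the 2 groups alone, the adjusted Tukey comparison, the epithelial reference, and without the 2 dimmest arrays (an alternative chosen after seeing the data). Between GK-S-30 and Wistar, slide as a fixed block gave Ascl2 a log2 difference of -2.41. Slides A and D held no second group, so this fit joined the groups through slides B and C. Its single Wistar array was replicate 1, the brightest of its group for Ascl2. Over single arrays left out the counts ran from 0 to 2, 0 to 1 and 2 to 4 in these 3 comparisons. Over all probes, the calls ran from 939 to 1728, 998 to 1471 and 3367 to 4527, against 1424, 1342 and 4101. The lowest of the first were 948 without GK-Sham-PF replicate 1 and 939 without GK-Sham-PF replicate 2. With slide as a fixed block they were 327, 210 and 268, with the adjusted Tukey comparison 565, 827 and 2690, with the unadjusted one 2565 and 2373 in the first 2 comparisons, and with unnamed probes 2184 (GK-Sham-PF against Wistar) and 6352 (GK-S-30 against Wistar). The cause was not tested, except that settings with more probes or fewer arrays change the adjustment itself.

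The replicate numbers did not pair the arrays: over 15 pairs of arrays of the same number in different groups, the correlation of deviations from the group means ran from -0.29 to 0.20, and 3 exceeded 0.1. With the replicate block the calls over all probes were 963, 986 and 3350, and those among the members were 0, 0 and 2. No called member difference changed sign under any setting or array left out. The epithelial reference moved the median of all probes from -0.02 to -0.12 between the bypass and sham groups. The dim probes of Sox9, Ephb2 probe 1 and the low signals of Lgr5 limit what could be seen of these genes.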
